A study of Mus musculus with 8 samples.

Results

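Of the 23420 genes in the deposited table, 6 were taken by symbol as the T-box genes of the head mesenchyme: Tbx1, Tbx2, Tbx3, Tbx15, Tbx18 and Tbx22. All 6 had a row. The table held 2 groups of libraries from E12.5 mouse embryos of the C57BL/6 strain, wild type, with 4 of early migrating cranial mesenchyme (EMM) and 4 of supraorbital cranial mesenchyme (SOM). Each library pooled 4 to 5 embryos, so that a library does not stand for 1 embryo, and no source used here says whether EMM and SOM pools share embryos. The tissue was cut from apical and basolateral head, loosened with the enzyme dispase and freed of surface ectoderm and brain before total RNA was extracted. Both groups share strain, genotype, age and dissection protocol, and the question was how the 2 regions differ in expression.

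T-box genes encode transcription factors that bind DNA through a conserved domain, the T-box. Some family members mainly activate their targets and others, such as Tbx2, Tbx3, Tbx15, Tbx18 and Tbx22, mainly repress them, in part by recruiting co-repressors of the Groucho (Tle) family and histone deacetylases. In the head, Tbx1 is known for the pharyngeal arches and for the 22q11 deletion syndrome, Tbx22 for cleft palate, Tbx15 for the skeleton and the skin pattern of the droopy ear mouse, and Tbx18 for boundaries between mesenchymal compartments and as a gene of pericytes.

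The libraries held 12.7 to 22.4 M gene-assigned reads in EMM and 16.8 to 33.7 M in SOM. All values are normalized counts, reads scaled by each library's size factor, and means are given with SD and n = 4 libraries. Differences are SOM minus EMM of log2(normalized count + 1) from limma, with Benjamini-Hochberg adjustment over the 14249 genes tested and a threshold of 0.05. The 10 mesenchyme markers, among them Twist1, Twist2, Col1a2 and Vim, were all detected, with summed levels of 897016 to 1039380 in EMM and 374715 to 432837 in SOM. The libraries fell into their 2 groups on the first principal component, which held 85.4% of the variance.

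Of the 6 genes, 4 were higher in SOM (Tbx1, Tbx3, Tbx15 and Tbx22), 1 was higher in EMM (Tbx18) and Tbx2 did not pass the test. The 5 calls stand beside 72.1% of all genes tested that were called in either direction. Over all genes, 36% were called higher in SOM and 36.1% higher in EMM, so that most genes differ between these tissues and a call by itself sets no gene apart. The 4 called genes higher in SOM all had a fitted difference of at least 2-fold, as did 5.19% of all genes, and so did Tbx18 in the other direction, as did 11%. The EMM and SOM libraries did not overlap for 5 of the 6, against 66.1% of all genes tested. Differences of at least 4-fold with a call were rarer, at 4.93% of genes, and Tbx1, Tbx15, Tbx18 and Tbx22 were among them. A difference at least as large in either direction was found in 3.10% of genes for Tbx15, in 3.37% for Tbx18, in 4.79% for Tbx1, in 11.6% for Tbx3 and in 0.358% for Tbx22. The median difference of the 6 genes was 1.64, beside 0.01 for all genes tested. Tbx22 passed the filter on low values only through its SOM libraries, whereas the other 5 genes had at least 10 normalized counts in all 8 libraries. Tbx22 thus had to be higher in SOM without overlap, and its part in the counts, shares and median above carries no weight.

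**Figure D1:**
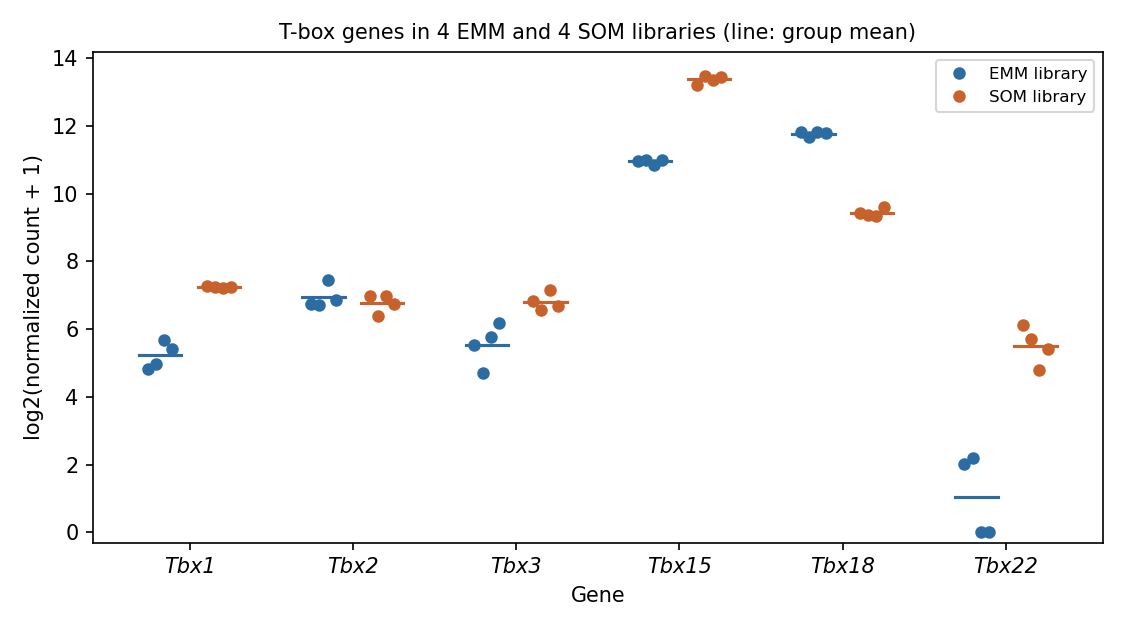
Each point is 1 library, with log2(normalized count + 1) on the vertical axis and the 6 genes on the horizontal axis, and lines mark the mean of 4 libraries. Tbx15 and Tbx18 lie far above the other 4 genes and differ in opposite directions, the groups of Tbx2 overlap, and 2 EMM libraries of Tbx22 lie at 0.

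Tbx15 and Tbx18, a pair of close relatives, showed differences of similar size in opposite directions. They lie on different chromosomes, Tbx15 on chromosome 3 from 99240381 to 99354259 and Tbx18 on chromosome 9 from 87702800 to 87731260 (GRCm38, GENCODE M21). Their coding sequences are alike around the codons of exons 3 and 4 that hold their longest identical run. The windows of 95 coding bases around it are shown because the pair is compared here and reads from identical stretches fit both genes. The windows span an intron, at chr3:99313089-99314812 on the plus strand for Tbx15 and at chr9:87724405-87727389 on the minus strand for Tbx18, and capitals mark the identical run of 23 bases.
Tbx15: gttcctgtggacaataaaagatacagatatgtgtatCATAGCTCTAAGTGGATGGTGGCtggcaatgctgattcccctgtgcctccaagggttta
Tbx18: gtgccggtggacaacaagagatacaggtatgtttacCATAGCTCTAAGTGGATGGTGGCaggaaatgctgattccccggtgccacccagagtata
The windows were identical at 81 of 95 bases, or 85.3%. Among the 15 pairs of the 6 genes no pair shared a longer identical run in any annotated transcript. Longer runs were shared with other T-box genes, of 42 bases by Tbx22 and Tbx5 and of 26 by Tbx15 and Tbx10 and by Tbx1 and Eomes. The read length is not given in any source used here.

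Tbx15 was by far the most abundant of the 6 in SOM. EMM replicates 1 to 4 held 2014, 2044, 1857 and 2057 normalized counts of Tbx15, and SOM replicates 1 to 4 held 9562, 11486, 10413 and 11149. The lowest SOM library thus stood well above the highest EMM library, and the libraries within each group lay close together. The means were 1993 ± 92.8 in EMM and 10652 ± 854 in SOM, a fitted log2 difference of 2.42 (SE 0.06, limma adjusted p = 1.09e-14), or 5.33-fold with a 95% confidence interval of 4.90 to 5.81. These values are from dissected tissue, so that more cells expressing the gene and more RNA per cell cannot be told apart, here or for the other genes.

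Cell markers that were higher in SOM are given here once for all the T-box genes higher there. Of 10 glia and melanoblast markers, 8 were tested, 6 were higher in SOM and 2 (Kit and Ednrb) in EMM. The neural crest factor Sox10 stood at 4.35 ± 1.69 in EMM and 513.5 ± 46.4 in SOM. Foxd3, another factor of crest cells and glia, had 0 reads in all EMM libraries and 99.9 ± 5.10 normalized counts in SOM, and Mlana and Tyrp1 were also at 0 in EMM. Sox10 and Foxd3 passed the filter on low values only through SOM libraries, so that both had to differ. Another gene of the list called higher in SOM also needed its SOM libraries to pass, and no weight is put on the count. The summed level of the list was 1473 to 1842 in EMM and 1389 to 1638 in SOM. The neuron genes Stmn2 and Tubb3 were higher in SOM by 3.26 and 1.20 (limma adjusted p at most 2.47e-06). The list of 10 neural markers that holds them split, with 7 tested, 3 higher in SOM and 3 in EMM, among them the neuron gene Elavl3. The summed level of these 10 was lower in SOM, at 5857 to 6082 against 8209 to 9566 in EMM. Of the eye markers 4 were tested, with the pigment genes Tyr (0.66) and Pmel (1.49) higher in SOM, Mitf (-0.69) higher in EMM and a median of 0.46. The 10 eye markers summed to 250 to 324 in EMM and 305 to 429 in SOM, with Cryba1 at 0 in all 8 libraries and Cryaa at 0 in all SOM libraries. The part of these cells in the T-box differences was not tested.

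Tbx18 had the opposite pattern. Its EMM replicates 1 to 4 held 3613, 3273, 3605 and 3550 normalized counts, and its SOM replicates held 688, 668, 655 and 774. The lowest EMM library stood far above the highest SOM library. The fitted log2 difference was -2.33 (SE 0.06, limma adjusted p = 1.92e-14), so that Tbx18 was 5.04-fold higher in EMM (interval 4.62 to 5.51). Tbx18 shares 970 exonic bases with an annotated gene on the other strand, D030062O11Rik, and with no strand setting stated, reads of these overlapping genes cannot be told apart.

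The ratio of the pair within a library does not depend on how libraries were scaled. Per kb of merged exon, Tbx15 stood at 0.702, 0.786, 0.649 and 0.730 of the Tbx18 level in EMM replicates 1 to 4. In SOM replicates 1 to 4 the same ratio was 17.5, 21.6, 20.02 and 18.1. Tbx18 was thus the more abundant of the pair in all 4 EMM libraries and Tbx15 in all 4 SOM libraries, and the ratio shifted by 4.75 on the log2 scale, or 26.9-fold.

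Pericytes are a known site of Tbx18 expression. Of 10 pericyte and smooth muscle markers, 9 were called higher in EMM, as were 36.1% of all genes tested. Among them were the smooth muscle genes Acta2 (-4.14), Tagln (-3.24) and Cnn1 (-4.94). Cspg4 was higher in SOM (0.33, limma adjusted p = 0.0372). That call did not hold when any of EMM replicates 2, 3 and 4 or SOM replicates 1, 3 and 4 was left out (limma adjusted p from 0.0632 to 0.0916), or when 3 libraries (EMM replicates 2 and 3, SOM replicate 4) were left out together (limma adjusted p = 0.280). The summed level of the list was 65895 to 73885 in EMM and 14504 to 17165 in SOM, and none of the 10 was at 0 in either group. The part of these cells in the Tbx18 difference was not tested.

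Tbx1, which in the head is best known from the pharyngeal arches and the muscle progenitors within them, was low in EMM and higher in SOM. It lies on chromosome 16 from 18580979 to 18590671 on the minus strand. EMM replicates 1 to 4 held 27.6, 30.7, 50.2 and 41.7 normalized counts, from 17 to 48 reads. SOM replicates 1 to 4 held 154, 150, 148 and 151. The SOM libraries were alike, with a coefficient of variation of 1.55%, whereas that of EMM was 27.6%, and the groups did not overlap. The fitted log2 difference was 2.01 (SE 0.17, limma adjusted p = 3.12e-08), or 4.04-fold (interval 3.13 to 5.21).

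Muscle progenitors, endothelium and epithelium are other known sites of Tbx1, and the summed markers of muscle and endothelium were lower in SOM. The skeletal muscle factor genes Myf5 and Myf6 had 0 reads in all 8 libraries, and Myod1 had none in EMM and a mean of 1.16 normalized counts in SOM. Myog, the other myogenic factor gene of the list, missed the filter and was higher in each SOM library than in any EMM library, with 1 read in EMM and 40 in SOM. The summed level of 10 muscle markers was 117 to 148 in SOM against 166 to 206 in EMM, and 4 of the 5 tested were called higher in EMM and none in SOM (2 in EMM when EMM replicates 2 and 3 and SOM replicate 4 were left out, and 2 in SOM with no filter on low values). The 10 endothelial and lymphatic markers summed to 12108 to 14645 in SOM against 17274 to 22435 in EMM, and the 10 surface and dental epithelium markers to 208 to 416 against 400 to 750, ranges that overlap. Of the 7 epithelium markers tested, 1 was higher in EMM and 6 were not called, with a median difference of 0.00. When EMM replicate 2 was left out 2 of them were higher in SOM, and 3 when EMM replicate 3 and SOM replicate 4 were left out too. None of these 20 was at 0 in a group. Their part in the Tbx1 difference was not tested.

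Tbx22, an X-linked gene of the palate and tongue region whose mutation causes cleft palate with a tied tongue, was nearly absent from EMM libraries. It lies on the X chromosome from 107667964 to 107688978. EMM replicates 1 and 2 held 3 and 2 reads, and replicates 3 and 4 held none. SOM replicates 1 to 4 held 69.3, 51.1, 26.8 and 42.1 normalized counts, from 42 to 73 reads. All 4 SOM libraries were above the EMM libraries, as passing the filter required, but they varied among themselves by 37.5%. The fitted log2 difference was 4.46 (SE 0.53, limma adjusted p = 5.33e-06). With so few EMM reads its size depends on the pseudocount, and it was 2.95 with a pseudocount of 5 and 5.03 with 0.5. From the summed reads the SOM level was 28.5 times the EMM level, with a 95% counting interval of 12.03 to 88.5 that covers counting error only. Mn1, a gene known to act upstream of Tbx22 in the palate, was also higher in SOM, by 0.72 as a log2 difference (limma adjusted p = 2.79e-08), at 5879 ± 466 against 3576 ± 241. Its part in the Tbx22 difference was not tested.

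Promoter sequence from RefSeq (GRCm38.p6) was matched for 3 of the 6 genes, Tbx1, Tbx18 and Tbx22, with 6 annotated starts in all. Tbx2, Tbx3 and Tbx15 had no entry. One start per gene is shown, the most upstream, because Tbx18 differed in the direction opposite to Tbx1 and Tbx22. Each sequence is the 250 bases before the start, at chr16:18590672-18590921 (minus strand) for Tbx1, chrX:107667714-107667963 (plus strand) for Tbx22 and chr9:87731261-87731510 (minus strand) for Tbx18, and capitals mark a motif match.
Tbx1: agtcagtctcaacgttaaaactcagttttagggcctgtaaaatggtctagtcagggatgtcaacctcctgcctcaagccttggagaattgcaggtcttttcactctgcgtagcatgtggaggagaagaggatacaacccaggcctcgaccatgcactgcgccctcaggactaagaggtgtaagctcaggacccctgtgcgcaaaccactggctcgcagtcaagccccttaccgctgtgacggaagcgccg
Tbx22: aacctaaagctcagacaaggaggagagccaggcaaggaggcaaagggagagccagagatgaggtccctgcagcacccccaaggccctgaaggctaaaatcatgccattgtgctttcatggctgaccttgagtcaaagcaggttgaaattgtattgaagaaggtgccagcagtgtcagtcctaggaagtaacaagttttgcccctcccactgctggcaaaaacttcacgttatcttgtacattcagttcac
Tbx18: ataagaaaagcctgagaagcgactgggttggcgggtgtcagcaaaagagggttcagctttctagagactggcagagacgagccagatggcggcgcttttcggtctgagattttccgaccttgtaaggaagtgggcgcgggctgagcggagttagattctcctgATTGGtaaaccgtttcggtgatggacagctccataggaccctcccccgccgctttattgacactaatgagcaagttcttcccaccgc
Searched on both strands were the T-box half-site AGGTGTGA, the homeodomain motif TAATTA, the forkhead motif GTAAACA, the GC box GGGCGG, the CCAAT box CCAAT, the TATA box TATAAA, the TCF/LEF motif CTTTGAT and the Twist E-box CATATG. No matches overlapped each other. The Tbx18 window held 1 CCAAT box, in reverse, a motif present in 33.8% of all 32851 windows of the same length. The windows of Tbx1 and Tbx22 shown held none of the 8 motifs, a second Tbx1 start held 1 GC box (32.7% of all windows) and a second Tbx22 start held 1 CCAAT box. The T-box half-site, present in 1.12% of all windows, was in none of the 6. These counts say only which letters stand in these windows.

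Tbx2 and Tbx3 are closely related repressors that act together in limb, heart and mammary gland, and TBX3 mutation causes ulnar-mammary syndrome. Around their longest identical run, of 14 bases, coding windows of 86 bases across exons 2 and 3, printed to show how alike the pair is, lie at chr11:85834873-85835865 for Tbx2 and chr5:119674279-119675628 for Tbx3, both on the plus strand. Capitals mark the identical run.
Tbx2: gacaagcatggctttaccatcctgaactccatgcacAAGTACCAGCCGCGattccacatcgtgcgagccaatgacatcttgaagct
Tbx3: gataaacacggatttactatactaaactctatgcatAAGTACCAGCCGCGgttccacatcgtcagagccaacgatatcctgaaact
These windows were identical at 70 of 86 bases, or 81.4%. The length of the run does not set the pair apart. Tbx2 shared a longer one with Tbx1 (18 bases), and Tbx3 with Tbx18 (17 bases).

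Tbx2 showed no difference that passed the test. EMM replicates 1 to 4 held 107, 103, 176 and 116 normalized counts, and SOM replicates 1 to 4 held 125, 82.6, 124 and 106. The groups overlapped, with EMM replicate 3 the highest library and SOM replicate 2 the lowest. The fitted log2 difference was -0.18 (SE 0.18, limma adjusted p = 0.368), and its 95% interval allows a SOM level between 0.677 and 1.15 times that of EMM. Without EMM replicate 3 the difference was -0.01. The summed endothelial and lymphatic markers were likewise highest in EMM replicate 3 and lowest in EMM replicate 2 and SOM replicate 2 of their groups. In SOM the orders differed otherwise, since the marker sum was highest in replicate 4 (14645) and Tbx2 in replicate 1. Of that list, 7 of 10 were higher in EMM and 1 in SOM, and none was at 0. Their part in the Tbx2 values was not tested.

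Tbx3 was higher in SOM. EMM replicates 1 to 4 held 45.0, 25.3, 53.3 and 71.4 normalized counts, and SOM replicates 1 to 4 held 113, 94.5, 142 and 102. The groups did not overlap, and EMM replicate 2, the shallowest library, had the lowest value with 14 reads. The fitted log2 difference was 1.27 (SE 0.27, limma adjusted p = 0.00104), or 2.41-fold (interval 1.61 to 3.61), and it was 0.99 without EMM replicate 2. Tbx3 shares 115 exonic bases with the antisense gene Tbx3os1. Per kb of merged exon, Tbx2 stood at 2.96 to 7.44 times the Tbx3 level in EMM and at 1.60 to 2.01 times in SOM.

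Compared per kb of merged exon, the order of the 6 genes differed between the regions. In EMM it ran from Tbx18 (744 ± 34.0 normalized counts per kb) and Tbx15 (532 ± 24.8) to Tbx2 (34.6 ± 9.34), Tbx1 (10.7 ± 2.95), Tbx3 (7.36 ± 2.89) and Tbx22 (0.301 ± 0.350). The libraries of Tbx1 and Tbx3 overlapped there, and the other neighbours in this order did not. In SOM the order was Tbx15 (2843 ± 228), Tbx18 (148 ± 11.4), Tbx1 (42.8 ± 0.664), Tbx2 (30.1 ± 5.50), Tbx3 (17.0 ± 3.19) and Tbx22 (8.52 ± 3.20), with no overlap between neighbours. With the longest transcript as the length, Tbx2 and Tbx3 also overlapped in SOM. Tbx15 made up 37.3% to 42.6% of the summed per-kb level of the 6 genes in EMM libraries and 91.0% to 93.0% in SOM libraries. Summed over the 6 genes, the level was 1281 to 1356 normalized counts per kb in EMM and 2805 to 3296 in SOM. Tbx15 and Tbx18 together made up 95.1% to 97.0% of the normalized counts of the 6 genes in every library.

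**Figure D2:**
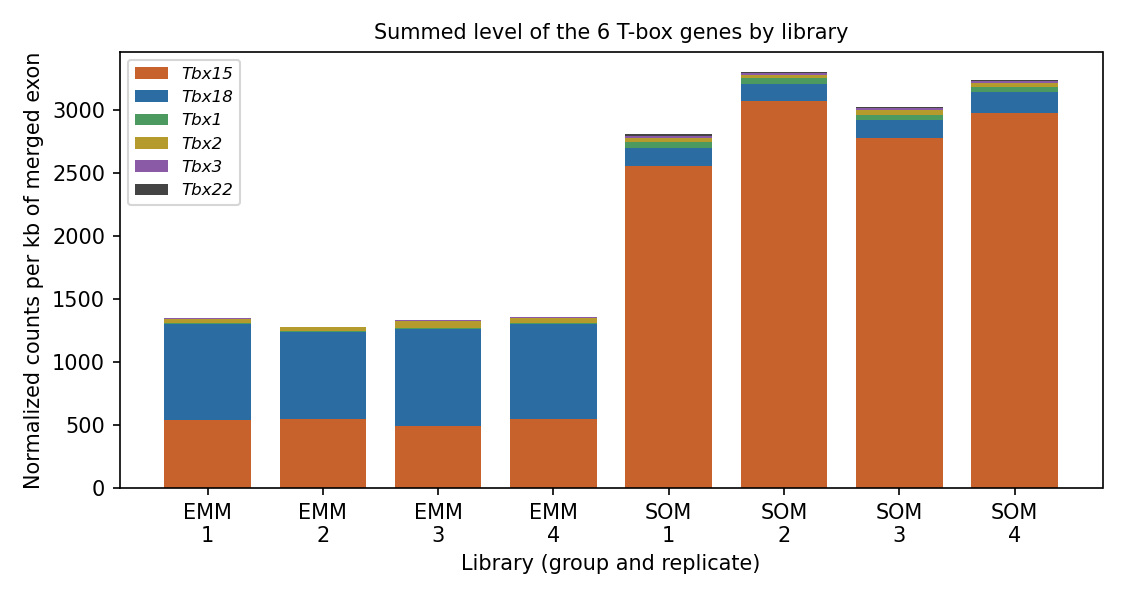
Stacked bars give the normalized counts per kb of merged exon of the 6 genes in each of the 8 libraries, named by group and replicate on the horizontal axis. EMM bars are mostly Tbx18 and Tbx15, and SOM bars are mostly Tbx15, at 2552 to 3065 normalized counts per kb.

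Of the other 11 T-box genes in the table, 6 passed the filter on low values, with 3 higher in SOM, 1 higher in EMM and 2 not called. Over all genes tested 72.1% were called, so that nothing particular to these genes is read from the count. In mammals Tbx2 and Tbx4, and Tbx3 and Tbx5, are linked pairs. Tbx4 starts 44.5 kb beyond the end of Tbx2 on chromosome 11, and Tbx5 starts 148 kb beyond Tbx3 on chromosome 5. Tbx4 and Tbx5, the T-box genes of hindlimb and forelimb, were both higher in SOM. Tbx4 had 24.5, 50.6, 16.7 and 39.0 normalized counts in EMM replicates 1 to 4 and 86.9, 74.9, 92.5 and 68.8 in SOM replicates 1 to 4, a log2 difference of 1.39 (SE 0.28, limma adjusted p = 0.000612). Tbx5 had 0 to 7.15 in EMM and 16.6 to 31.5 in SOM, a log2 difference of 3.15 (limma adjusted p = 9.45e-05), which was 1.99 with a pseudocount of 5 and 2.19 when EMM replicates 2 and 3 and SOM replicate 4 were left out. Whether linked genes differ from each other was not tested.

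T (brachyury), the founding gene of the family and known from the notochord and early mesoderm, was also higher in SOM. Its EMM replicates 1 to 4 held 8.18, 5.42, 26.1 and 1.35 normalized counts, and its SOM replicates held 44.1, 51.8, 48.5 and 41.4. The SOM libraries were alike, and EMM replicate 3 stood above the other EMM libraries. The log2 difference was 2.59 (SE 0.64, limma adjusted p = 0.00556), and it was 3.19 without EMM replicate 3 and 3.40 when EMM replicate 2 and SOM replicate 4 were left out as well. It was smaller without EMM replicate 4 (2.02), with edgeR (2.05), with DESeq2 (2.10) and with a pseudocount of 5 (1.999). T, Tbx5 and Eomes, like Tbx22, would not have passed the filter without the libraries of the group where each is high. For Tbx5, Eomes and Tbx22 every library of the other group lay below 10 normalized counts. Passing the filter thus fixed that their groups would not overlap. That was not so for T, with EMM replicate 3 at 26.1, or for Tbx6, which needed its EMM libraries to pass and was not called.

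Eomes, a gene of intermediate progenitors in the cortex, was higher in EMM at low levels. EMM replicates 1 to 4 held 29.6, 21.7, 10.5 and 10.8 normalized counts, and SOM libraries held 0.700 to 2.55. The log2 difference was -2.72 (SE 0.42, limma adjusted p = 2.50e-05), -1.69 with a pseudocount of 5, -3.32 with edgeR and -3.40 with DESeq2. Tbr1, a gene of cortical neurons that missed the filter, had 9.42 to 36.1 in EMM and 2.52 to 6.01 in SOM. Markers of neurons went both ways. The neuron gene Elavl3 stood at 20.9 ± 10.7 in EMM and 3.55 ± 2.73 in SOM, and it passed the filter only through EMM libraries. The neuron genes Stmn2 and Tubb3 were higher in SOM, opposite to Eomes and Tbr1. Among the 10 neural markers 7 were tested, with 3 higher in EMM (among them Elavl3 and Nes) and 3 in SOM (Stmn2, Tubb3 and Emx2). None was at 0 in a group, and the summed level was 8209 to 9566 in EMM and 5857 to 6082 in SOM. Their part in the Eomes and Tbr1 values was not tested.

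Mga, which joins a T-box to a domain that pairs with Max, stood at 2266 ± 211 in EMM and 2023 ± 212 in SOM without a call (limma adjusted p = 0.0703). Without SOM replicate 4 it was called higher in EMM, with a log2 difference of -0.22 (limma adjusted p = 0.0125), and when EMM replicates 2 and 3 were left out too it was -0.29 (limma adjusted p = 0.0113). Tbx6 was not called, at 18.9 ± 3.81 and 14.1 ± 6.27. Tbx10, Tbx19, Tbx20 and Tbx21 did not pass the filter, with mean levels of at most 6.01 normalized counts in either group. Tbx10 had 4 reads in EMM and 0 in SOM.

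**Figure D3:**
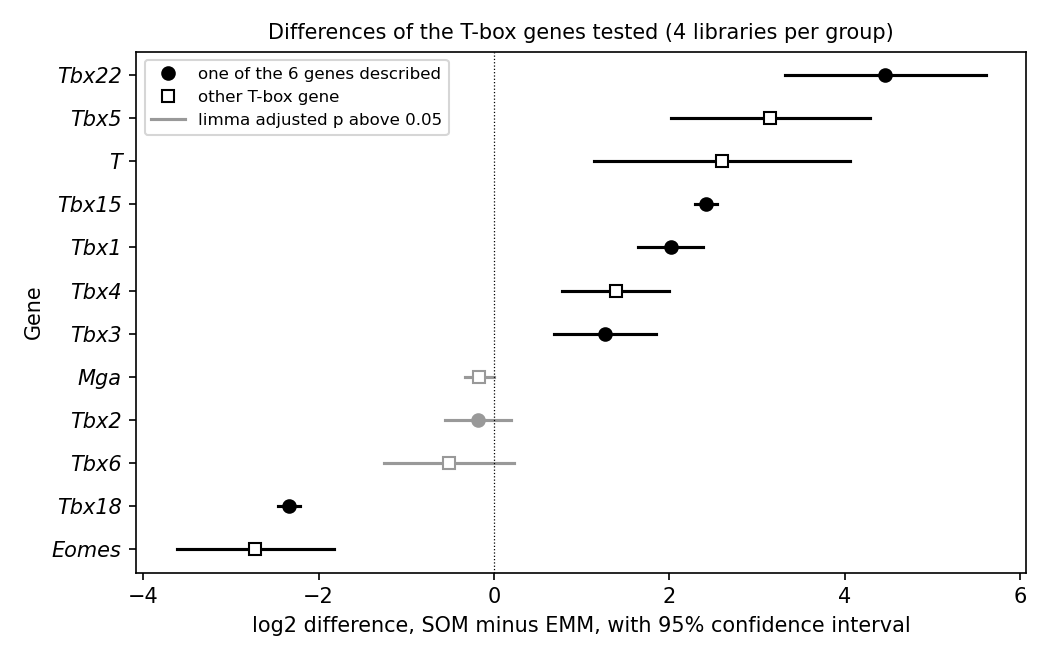
Points give the log2 difference, SOM minus EMM, of each of the 12 T-box genes tested, with lines for the 95% confidence interval. Of these, 7 lie above 0 and 2 below with a call, and grey marks the 3 genes without one, Mga, Tbx2 and Tbx6. Over all genes tested 72.1% were called. T, Tbx5, Tbx22 and Eomes would not have passed the filter without the group where each is high, nor would Tbx6 without EMM.

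The counts for genes with which T-box factors are known to work are to be read beside the 72.1% of all genes tested that were called, 36% toward SOM and 36.1% toward EMM, and nothing particular to these lists is read from them. The 10 co-repressor genes had a median difference of 0.29, with 6 called toward SOM, 2 toward EMM and 2 without a call. The Groucho genes split: Tle4 (1.19, adjusted p of limma 2.51e-08) and Tle3 (0.65, 1.27e-08) were higher in SOM and Tle1 (-0.76, 1.81e-07) in EMM. The histone deacetylase gene Hdac2 was higher in SOM by 0.47. Hdac1 was higher in EMM by a small amount (-0.11, limma adjusted p = 0.0407), a call lost with edgeR, with other scalings (limma adjusted p up to 0.147) and without any one of EMM replicates 2, 3 and 4 or SOM replicates 1, 2 and 4 (limma adjusted p up to 0.113). With EMM replicates 2 and 3 and SOM replicate 4 all left out its limma adjusted p was 0.214.

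The 13 partner transcription factors gave 5 higher in SOM, 4 higher in EMM and 1 not called among 10 tested, with a median of 0.59. Alx1, a homeobox gene of the frontonasal skeleton, was higher in SOM by 3.01 (SE 0.07), and Six2, a homeobox gene of mesenchymal progenitors, by 1.18. Msx1 and Msx2, known binding partners of Tbx2 and Tbx3, were higher in EMM, with differences of -2.22 and -2.05, and so was Osr1 (-1.26). In limma, the largest adjusted p among the 5 genes with differences given was 2.32e-08.

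Among 11 genes that act upstream of T-box genes in other tissues, 9 were tested, 5 were called toward SOM and 2 toward EMM, and the median was 0.16. The ligand gene Bmp2 was higher in SOM (2.01) and Bmp4, a known inducer of Tbx2 and Tbx3, in EMM (-1.17). Foxc1, a forkhead gene that acts on Tbx1 in the arches, was higher in EMM (-1.71), and Aldh1a3, which makes retinoic acid, in SOM (2.08). Fgf8 and Shh, ligands known to act with Tbx1, did not pass the filter, with means of at most 1.34 normalized counts in a group. In limma, the largest adjusted p of these 4 called genes was 1.43e-06.

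Of 15 genes known to lie downstream of T-box factors, 10 were tested, 4 were higher in SOM, 5 in EMM and 1 was not called, and the median was -0.18. Fgf10 and Flt4, which Tbx1 is known to activate, were higher in SOM by 2.29 and 0.69. Cyp26b1, a retinoic acid degrading enzyme gene of a family that Tbx1 regulates, was higher in SOM by 2.88. Gja1, Cdh1 and Ndrg1, which Tbx2 or Tbx3 are known to repress, were higher in EMM, with differences of -1.82, -2.58 and -1.53. In limma, the largest adjusted p of these 6 genes was 0.000492. Whether T-box factors act on these genes here was not tested, and Tbx2 itself was not called. The count higher in EMM was 3 without EMM replicate 2, and also 3 when EMM replicate 3 and SOM replicate 4 were left out too.

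**Figure D4:**
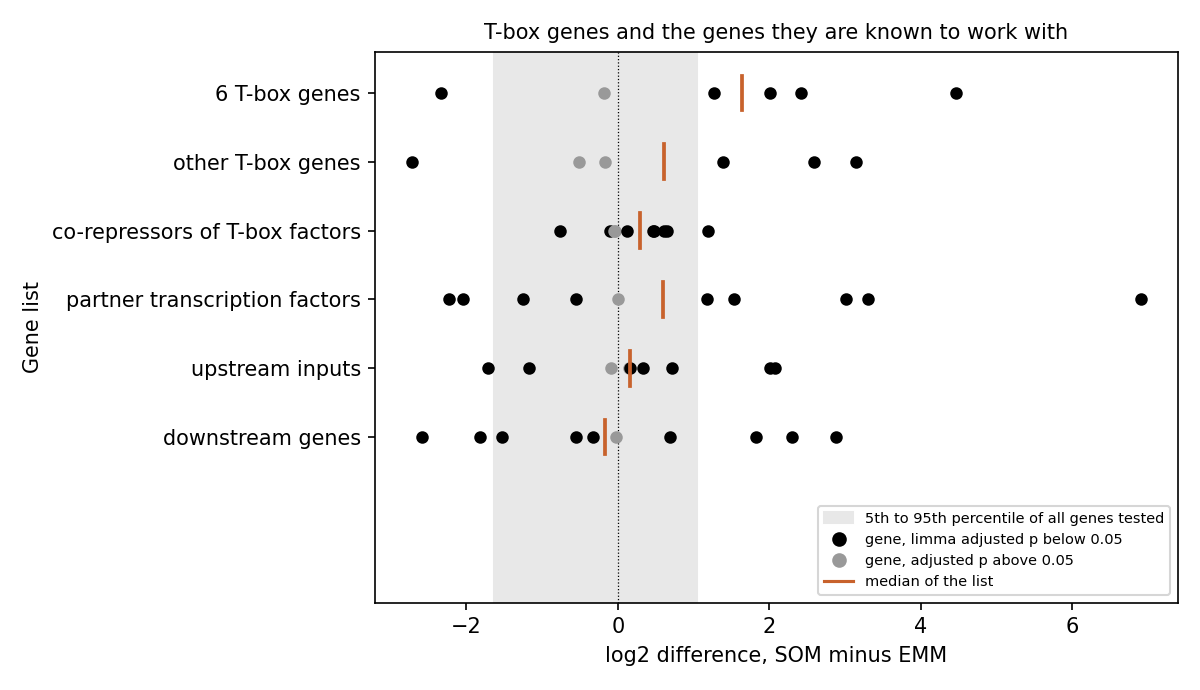
Each point is a gene of the list named on the vertical axis, placed by its log2 difference, SOM minus EMM, with grey for genes not called and a bar for the list median. The grey band holds the 5th to 95th percentile of all genes tested. The medians run from -0.18 for downstream genes to 1.64 for the 6 T-box genes.

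Protein-coding genes beside the T-box genes on the chromosome were compared in the same fit. Wars2, which ends 1.20 kb before Tbx15 starts, was not called (0.13, limma adjusted p = 0.147), and Spag17 on the other side was higher in EMM (-0.97). Both neighbours of Tbx18 were higher in EMM, as Tbx18 was, with differences of -0.92 for Cep162 at 447 kb and -1.31 for Nt5e at 596 kb. Of the neighbours of Tbx1, Gnb1l, at 14.3 kb, was higher in SOM by 0.42 and Gp1bb was not called (-0.09). Both neighbours of Tbx22, Itm2a (-0.68) and 2610002M06Rik (-0.38), were higher in EMM, opposite to Tbx22. Bcas3 beside Tbx2 (0.03) and Med13l beside Tbx3 (-0.05) were not called, though Med13l was called higher in EMM without SOM replicate 4 (-0.17, limma adjusted p = 0.0111). The called neighbours named here had a limma adjusted p of at most 0.00723.

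For each gene the 3 genes with the most similar profile over the 8 libraries were taken by the root mean square difference of their centred log2 values. Tbx18 had the closest ones, Stard8, Gatm and AI607873, at 0.08, 0.09 and 0.10 on the log2 scale. Baalc, Ntf3 and Serpine2 were nearest to Tbx15, at 0.13 to 0.14, and Elovl2, Slc35f2 and Macrod1 to Tbx1, at 0.15 to 0.16. For Tbx2 they were Rdh5, Gnaz and 4930539J05Rik (0.13 to 0.14), and for Tbx3 they were 6430550D23Rik, 1810021B22Rik and Gm15612 (0.18 to 0.26). Tbx22 had no close profile, with E330013P04Rik, Gm9866 and Bmper at 0.45 to 0.62. Some of the genes named were low in EMM, where their profiles rest on few reads. The EMM means were 6.29 normalized counts for 6430550D23Rik, 6.45 for 1810021B22Rik and 0.707 for Gm9866. With a pseudocount of 5, 9 of these 18 genes were named again, and with Pearson correlation 2 of 18.

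In the authors' deposited table, which gives log2 fold changes of EMM over SOM, the values were -2.41 for Tbx15, 2.32 for Tbx18, -1.91 for Tbx1, -1.13 for Tbx3, -3.49 for Tbx22 and 0.21 for Tbx2. In the same deposited table the authors' adjusted p was 0.366 for Tbx2 and at most 1.26e-06 for the other 5.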

How the data were processed

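RNA of 4 EMM and 4 SOM pools was compared. Per the submitters' processing notes, bcl2fastq, STAR and DESeq2 were used (no versions given) with build mm10; no source used here gives the annotation, counter or strand setting. The authors deposited a table of 23420 genes whose library columns hold a normalized count, a signal made by dividing reads by each library's size factor. Other columns of the deposited table hold the authors' log2 fold changes, Wald score, p-value and adjusted p-value. In every library 100% of values came out, within 1 ppm, as whole multiples of the lowest value above 0, which gave back the reads. Within a library 3 reads came to 1.91 to 5.42 normalized counts.

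Genes with at least 10 normalized counts in at least 4 libraries were tested, 14249 in all, on log2(value + 1) with limma 3.58.1 in R 4.3.3 (trend, robust, no covariate), which understates changes of low genes. Benjamini-Hochberg adjusted p-values run over all of them. Libraries were left out of the fit with the same genes kept. Alternatives were edgeR 4.0.16 and DESeq2 1.42.0 on recovered reads, which called 10350 and 9991 genes, other scalings, pseudocounts and filters, and a replicate block. On simulated data the fit called 74% of 1.5-fold, 89.8% of 2-fold and 98% of 4-fold changes among 14241 genes, and 9 of 14042 unchanged ones. Only 200 genes were changed in that simulation, whereas 72.1% of the genes tested were called in the data. Its rates therefore do not carry over to the fit of the data. Libraries of a group differed beyond counting noise (chi-square per degree of freedom 3.72 to 19.0), so none was counted as a duplicate. No source says more of how replicates were taken, so p-values measure only the spread between these pools.

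The 6 genes, the lists and the comparisons were chosen with earlier results of these data known. Named were the 6 genes, every other T-box gene, up to 3 genes per direction and list with the lowest adjusted p, the nearest coding genes on each side and the 3 nearest profiles; others (Fgf8, Shh, Myf5, Myf6, Myod1, Myog) were named for their known role. Lists were matched by symbol, and some of their genes are not reported here by name. Of the neighbours Cep162 was matched by its older symbol, and Gm11444, next to Tbx2, had no match. Coordinates and exon lengths are from GENCODE M21 (GRCm38, the assembly that mm10 names), and promoters from RefSeq.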

Additional observations from a re-analysis of the deposited data

Results flagged for a closer look

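The values of the 12 T-box genes tested and of the 2 within-library ratios gave 28 groups of 4 libraries, and in 1 of them a library stood apart from the other 3 by more than Dixon's critical value at 95%. EMM replicate 1 had 2582 normalized counts of Mga, above the other EMM libraries. Chance flags about 1 in 20 such groups.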

How the results depend on the processing

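The 5 calls among the 6 T-box genes kept their direction and their side of the threshold under all 18 alternatives, 17 for Tbx22, which has no value with a filter at 50. Tbx2 stayed without a call, with differences from -0.26 to -0.01. The differences ran from 2.36 to 2.47 for Tbx15, from -2.42 to -2.30 for Tbx18, from 1.88 to 2.16 for Tbx1, from 0.99 to 1.48 for Tbx3 and from 2.95 to 5.03 for Tbx22. The counts over all genes stayed within 1.5 times. Of the other T-box genes, 1 was called toward SOM and 0 toward EMM when the filter was set at 50, where fewer genes are tested. In EMM the count was 2 with no filter and when EMM replicates 2 and 3 and SOM replicate 4 were left out; with each library left out, it was 1 to 2. Co-repressor genes higher in EMM numbered 1 with edgeR, with TMM scaling, with upper quartile scaling and with those 3 libraries left out, and 1 to 2 with each library left out. Downstream genes higher in EMM numbered 3 without these 3 libraries and 3 to 5 with each left out. The mean log2 ratio of Tbx2 to Tbx3 in SOM was 0.82 per merged exon and 0.41 per longest transcript. Beyond what each setting changes by construction, the cause was not tested. Whether the replicate numbers pair the samples is not known, and the values here cannot settle it. The correlation of same-numbered libraries' deviations lay between -0.02 and 0.126, and 1 of 4 numbers correlated best with its own in both directions. With the replicate block 10249 genes were called against 10278 without it, and the calls of the 6 genes were the same (Tbx3 1.27, adjusted p = 8.84e-05 in limma). Depth limits Tbx22, Tbx5, T and Eomes, with 5 to 37 reads in all over the 4 libraries of the group where each is low.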
